A study of Mus musculus with 8 samples.

Results

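Circular RNAs (circRNAs) of solute carrier genes were examined in mouse heart. The set holds every circle whose host gene symbol starts with Slc and a family number, with Slc8a1, the sodium-calcium exchanger of the cell membrane, left out. It comes to 294 of the 27391 circles listed and to 104 of the 6492 host genes. Of the 104 symbols, 2 match the naming rule without naming a member of a carrier family: Slc9a3r2 and Slc4a1ap encode proteins named after a carrier. The hearts came from male wild-type mice, taken 8 weeks after transverse aortic constriction (TAC, 4 mice) or after a sham operation (4 mice), with 1 library per mouse. TAC is surgery that tightens the aortic arch and puts a lasting pressure load on the left ventricle. Age, strain and the part of the heart used are not given in the labels. No transgene, drug or allele is named in either group.

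A circRNA forms when splicing joins an exon's end backwards to its own start or to an exon upstream, which leaves a closed loop without a cap or a tail. Solute carriers are membrane proteins that move sugars, amino acids, lactate, ions, metals and metabolites across the cell membrane and the membranes of organelles. In heart muscle they bring in fuel, set calcium, sodium and proton gradients, and link mitochondria to the cytosol. A circle carries part of a carrier's transcript, and its read number is a measure of that circle and not of the carrier's mRNA or protein.

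The joined exon ends identify each circle, so the junctions of 9 of the circles whose values are described here are shown. Each run is 40 bases in transcript direction, built from GENCODE M21 exons at mm10 coordinates. The last 20 bases of the final exon are in lower case, and the first 20 bases of the first exon, to which they are back-spliced, are in capitals. All exons of these circles are coding sequence.
Slc16a10 exons 2 to 3 (chr10:40076564-40080807, minus strand): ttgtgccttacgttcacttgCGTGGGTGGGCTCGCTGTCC
Slc35f5 exons 5 to 10 (chr1:125568547-125579327, plus strand): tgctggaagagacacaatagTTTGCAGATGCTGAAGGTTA
Slc26a10 exons 6 to 8 (chr10:127176572-127177169, minus strand): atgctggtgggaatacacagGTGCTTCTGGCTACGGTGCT
Slc2a12 exon 2 (chr10:22664363-22665706, plus strand): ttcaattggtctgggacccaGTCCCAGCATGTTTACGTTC
Slc8b1 exons 6 to 14 (chr5:120520781-120530396, plus strand): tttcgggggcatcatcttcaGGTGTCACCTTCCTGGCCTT
Slc30a7 exons 6 to 8 (chr3:115978644-115984974, minus strand): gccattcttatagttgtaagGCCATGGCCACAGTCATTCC
Slc43a2 exons 3 to 5 (chr11:75543158-75545830, plus strand): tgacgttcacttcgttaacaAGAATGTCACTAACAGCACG
Slc44a1 exons 2 to 3 (chr4:53481464-53491530, plus strand): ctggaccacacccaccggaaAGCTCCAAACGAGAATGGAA
Slc44a1 exons 2 to 4 (chr4:53481464-53517681, plus strand): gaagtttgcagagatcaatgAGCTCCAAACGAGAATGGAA

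Both Slc44a1 circles carry the same 20 bases in capitals, since both begin at exon 2, and they differ in the exon end joined to it. The shorter circle of that choline transporter gene is 233 nt long and is given whole, opened at the back-splice, with the first 10 and the last 10 bases, which meet in the circle, in capitals.
Slc44a1 exons 2 to 3: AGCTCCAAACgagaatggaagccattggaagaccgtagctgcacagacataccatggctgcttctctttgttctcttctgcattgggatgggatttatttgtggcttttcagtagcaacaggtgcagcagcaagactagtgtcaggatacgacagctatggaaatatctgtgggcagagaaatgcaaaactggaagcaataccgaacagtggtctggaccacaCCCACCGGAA

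The values are the authors' back-spliced reads divided by 1 size factor per library, called normalised reads here, and whole reads were recovered from them. In the TAC libraries, replicates 1 to 4 held 33132, 1119, 21074 and 36120 back-spliced reads, against 40796, 3963, 17890 and 100142 in sham replicates 1 to 4. Slc circles made up 234, 3, 130 and 292 of these reads in the TAC libraries, against 344, 26, 127 and 645 in the sham libraries. TAC replicate 2 and sham replicate 2 thus stood apart in depth. A single read was worth 5.77 normalised reads in TAC replicate 2 and 4.54 in sham replicate 2, so 0 reads of a circle there still allows up to 17.3 and 13.6 normalised reads, counting 3 reads as the limit.

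As a share of all back-spliced reads, Slc circles made up 0.706%, 0.268%, 0.617% and 0.808% in the TAC libraries. The sham libraries had shares of 0.843%, 0.656%, 0.710% and 0.644%. The groups overlapped, and the lowest share, that of TAC replicate 2, rested on 3 reads and had a 95% Wilson interval from 0.0912% to 0.785%. The mean share was 0.60% ± 0.235 in TAC hearts and 0.713% ± 0.0912 in sham hearts (SD, n = 4 each), a difference that was not tested. The intervals cover counting error only, and replicate mice are separate animals.

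**Figure D1:**
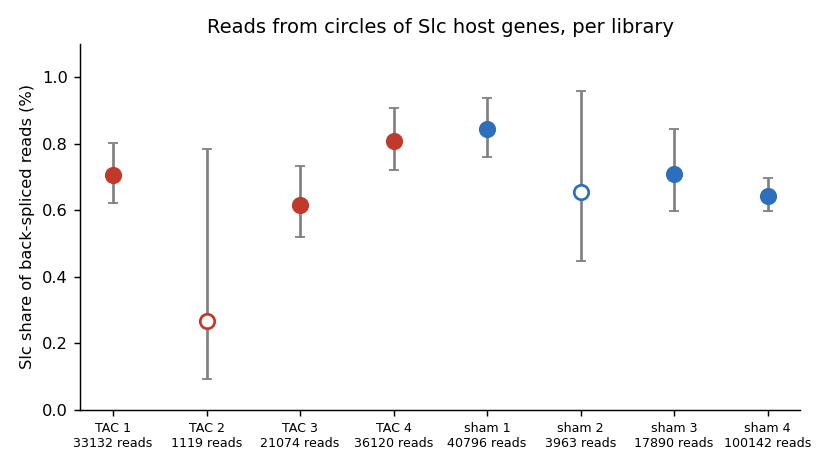
Share of back-spliced reads that come from Slc circles (y axis, %) in each library, with the read total under its name. Points are shares and bars 95% Wilson intervals, red for TAC, blue for sham, and open points mark the libraries with fewer than 5000 reads. The groups overlap, and TAC replicate 2 has the widest interval.

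Most Slc hosts gave few circles. The 104 hosts had 2.83 circles each on average, against 4.22 over all hosts, and 44 of them (42.3%) had a single circle, against 34.9% of all hosts. The largest number, 14, belonged to Slc25a13, an aspartate-glutamate carrier of mitochondria. Slc4a4, a sodium bicarbonate cotransporter, followed with 12, Slc35f5, an orphan of family 35, with 11, and Slc25a12, the other aspartate-glutamate carrier, with 9. These are whole-table counts in which depth and gene length were not matched.

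The 14 circles of Slc25a13 shared 47 reads, and the leading one held 19.1% of them. The 12 circles of Slc4a4 shared 26 reads. Slc16a10, which transports aromatic amino acids and thyroid hormones, had 126 reads in 2 circles, and 99.2% of them fell on exons 2 to 3. Slc26a10, of the anion exchanger family 26, had 54 reads in 1 circle.

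Of the 294 circles, 275 spanned annotated exons and 19 lay in introns. The exon circles had a median spliced length of 464 nt and ran from 130 to 2440 nt, against a median of 503 nt over all circles with a length. Exon 2 was the first exon in 82 of them (29.8%), against 23% of all such circles. Among the 34 Slc circles with reads in at least 4 libraries, 19 (55.9%) began at exon 2, against 31.2% of all circles with that spread. The translation start codon lay in 8 of the 34, from Slc16a1, Slc20a2 (2 circles), Slc31a1, Slc35b3, Slc35e2, Slc37a3 and Slc38a1, which is 23.5% of them against 12.9% of all circles in at least 4 libraries. These shares are descriptions and were not tested.

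The circles were sparse. A single library held all reads of 192 Slc circles (65.3%, against 61.7% of all circles), and 141 circles had 1 read in all. Reads were found in TAC libraries only for 139 circles, in sham libraries only for 83, and in both groups for 72. Over all 27391 circles the numbers were 13156, 6734 and 7501, so TAC-only circles were also the most numerous in the whole table. Slc circles seen per library numbered 110, 3, 69 and 122 in the TAC libraries, against 104, 19, 54 and 55 in the sham libraries. Sham replicate 4 had the most Slc reads of any library and fewer circles than TAC replicates 1, 3 and 4, an order also found over all circles, with 10786, 7770 and 11550 in those TAC libraries against 5600 in sham replicate 4.

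By family number, mitochondrial carriers of family 25 had the most circles, 53 from 16 of 47 annotated genes (34%). Amino acid and peptide carriers had the most hosts, 19 of 47 (40.4%), with 47 circles and 180 reads, and none of these hosts had more than 38 reads. Carriers of taurine, creatine, amines and vesicular transmitters had 3 hosts among 35 annotated genes (8.57%). Family 5, which holds the sodium-coupled sugar transporters, had no listed circle among its 13 annotated genes.

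A single host could carry a class. Slc35f5 held 72.9% of the 266 reads of family 35, which is known for nucleotide sugar transport and also holds orphans. Slc44a1 held 77.0% of the 87 reads of the fatty acid, choline and lipid class, and Slc8b1, the sodium-calcium exchanger of mitochondria, 94.9% of the 39 reads of the calcium exchange class. The organic acid, cation and bile acid class had the most reads of any class, 318, and Slc16a10, which belongs to it by family number, had 39.6% of them.

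Class sums overlapped between the groups in the classes plotted. Mitochondrial carriers summed to 23.1, 0, 5.15 and 17.2 normalised reads in the TAC libraries, against 23.1, 18.2, 24 and 26.5 in the sham libraries. Metal carriers summed to 24.5, 0, 16.5 and 14 in the TAC libraries, against 4.93, 13.6, 5.80 and 11.3 in the sham libraries. Apart from TAC replicate 2, at 0 in both, TAC values of the metal class lay above every sham value. In the mitochondrial class TAC replicate 1 lay within the sham range and the other TAC libraries below it. These sums carry no test.

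**Figure D2:**
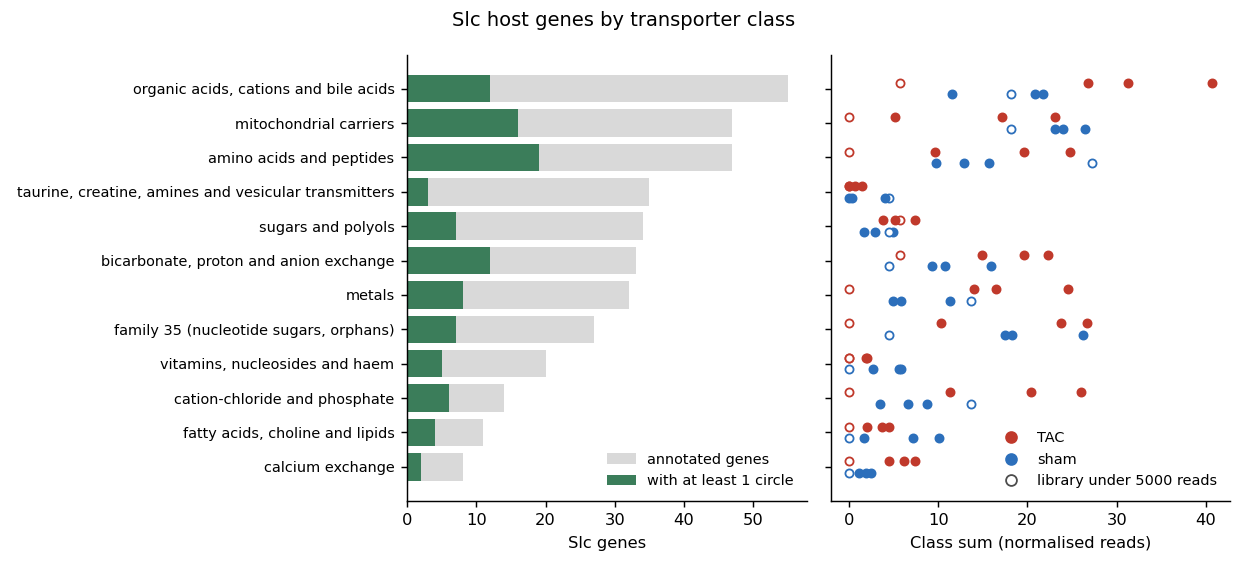
Left, annotated Slc genes per transporter class (grey) and those with at least 1 listed circle (green). Right, class sums in normalised reads, 1 point per library, red for TAC and blue for sham, open for libraries under 5000 reads. Amino acid and mitochondrial carriers have the most hosts, and the groups overlap in each class shown.

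Among known transporters of heart muscle, 13 of 23 chosen genes had a listed circle. Several were sparse: Slc22a5, the carnitine importer, and Slc27a1, a fatty acid transport protein, had 1 read each. Slc25a3, the mitochondrial phosphate carrier, had 9 reads, all in sham replicate 4. Slc12a2, the sodium-potassium-chloride cotransporter, had 8 reads, all in TAC replicates 1 and 4. Slc16a1, the lactate and pyruvate transporter, had 80 reads, the most of the 13.

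No Slc circle passed the test between TAC and sham hearts. limma, fitted over the whole table, called 0 of the 34 Slc circles at an adjusted p of 0.05, where it called 1 of 3735 circles (0.0268%). At an unadjusted p under 0.05 it had 1 Slc circle, lower in TAC, against 4.07% of all circles under that limit and 2.12% lower in TAC. edgeR on the recovered reads called 0 of the 4 Slc circles it tested, against 94 of 717 (13.1%), with 1 at an unadjusted p under 0.05, against 28.5% of all tested. DESeq2 called 0 of 34, against 34 of 3735 (0.91%), with 1 at an unadjusted p under 0.05, against 8.19% of all tested.

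Host sums, which add all circles of a gene, gave the same count. limma called 0 of the 45 Slc hosts tested, against 1 of 2967 hosts (0.0337%), and 0 at an unadjusted p under 0.05, against 3.03% of all hosts. edgeR called 0 of 8, against 84 of 1020 (8.24%), and DESeq2 0 of 45, against 32 of 2967 (1.08%), each with 1 Slc host at an unadjusted p under 0.05, where the share of all hosts was 24% in edgeR and 8.09% in DESeq2. No Slc host had groups that did not overlap, against 1.35% of all hosts with TAC above sham and 1.89% with TAC below. With 4 mice a group and 2 shallow libraries, no change was detected in the Slc members, and the standard errors of the 34 log2 fold changes ran from 0.92 to 1.61.

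Signs of the fold changes were mixed. Of the 34 Slc circles, 19 had a positive log2 fold change of TAC over sham and 15 a negative one, with a median of 0.31, against 0.15 and 54.3% positive over all circles tested. Of the 45 hosts, 24 were positive and 21 negative, with a median of 0.05, against 0.13 and 55% positive over all hosts. The filter on low values passed 34 of the 294 circles and 45 of the 104 hosts, so these counts leave out most members. The balance of signs moved with the scale and in fits with 1 library left out. With library totals as the scale, 18 circles were positive and 16 negative, with a median of 0.02, against -0.08 over all circles, and 18 hosts were positive and 27 negative, with a median of -0.22, against -0.12 over all hosts. Without TAC replicate 2, the medians were 1.06 over 63 Slc circles and 0.98 over 57 Slc hosts, against 0.94 over all circles and 0.94 over all hosts. Without TAC replicate 4, they were -0.27 over 43 Slc circles and -0.51 over 46 Slc hosts, against -0.15 over all circles and -0.15 over all hosts. With 1 library left out, the filter fell to 3 libraries and more readily admitted circles and hosts seen in 1 group only. These medians thus cover other sets of members, and the part of the filter in them was not tested.

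Fold changes went with spliced length, in Slc circles as in all circles. At 500 nt or less, 11 Slc circles were positive and 12 negative, with a median of -0.34, and over 500 nt 8 were positive and 3 negative, with a median of 1.03. Over all circles tested the medians were -0.23 and 0.87. Circles over 500 nt held 59.8%, 66.7%, 57.7% and 51.8% of Slc reads in the TAC libraries, against 31.8%, 56%, 31.5% and 27.2% in the sham libraries. Sham replicate 2 thus lay among the TAC libraries, and the value of TAC replicate 2 rests on 2 of 3 reads. With the length trend of each library removed, 12 of the 23 shorter Slc circles and 5 of the 11 longer ones were positive, with medians of 0.03 and -0.07, and limma called 0 of the 34. That trend was fitted over all tested circles and subtracted, which by itself centres the fold changes of all circles near 0 at each length. Any difference between the groups that varies with length is removed with it, whatever its source. Single fold changes moved when the trend was removed. Slc33a1 exons 2 to 6, from an acetyl-CoA transporter gene, had a log2 fold change of 1.58 as deposited and 0.39 with the trend removed. Slc35e2 exons 2 to 5, from an orphan of family 35, had 1.74 as deposited and 0.59 with the trend removed.

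**Figure D3:**
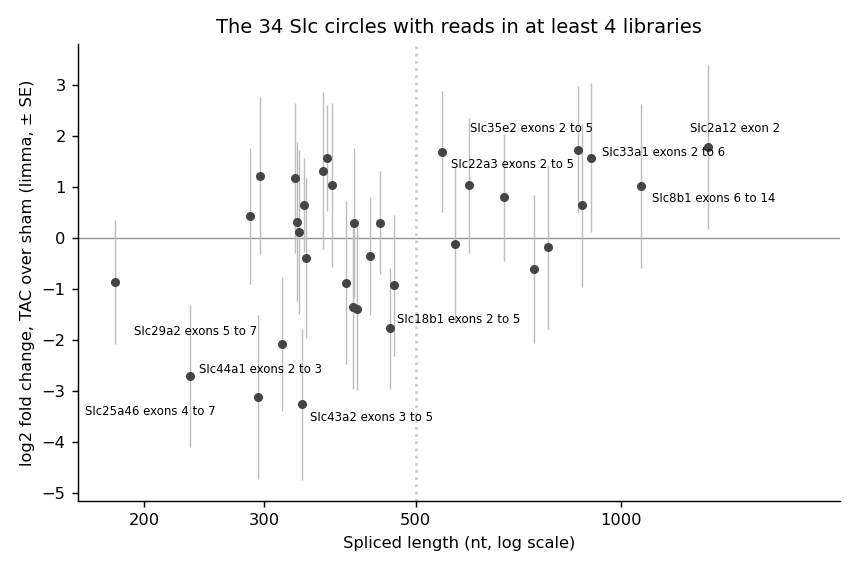
log2 fold change of TAC over sham in limma (y axis, bars ± SE) against spliced length in nt (log scale) for the 34 Slc circles with reads in at least 4 libraries, with a dotted line at 500 nt. Over 500 nt 8 of 11 points lie above 0, and at 500 nt or less 11 of 23 do, and no circle passed the threshold.

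Slc16a10 exons 2 to 3 was the only Slc circle with reads in all 8 libraries. It had 13.4, 5.77, 12.4 and 22.9 normalised reads in the TAC libraries, against 7.58, 13.6, 1.66 and 6.42 in the sham libraries. TAC replicates 1, 3 and 4 lay above sham replicates 1, 3 and 4, while the shallow replicates 2, with 1 and 3 reads, lay the other way round. The limma log2 fold change was 1.04 ± 1.32 (SE, adjusted p = 0.926) and that of edgeR 0.99 ± 0.72 (SE, adjusted p = 0.376). With the length trend removed limma gave 0.32, and edgeR with that trend as an offset gave 0.30 (adjusted p = 0.779).

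Slc35f5 had the largest number of reads, 194, of which 78.4% came from exons 5 to 10. That circle had 14.1, 0, 5.15 and 15.9 normalised reads in the TAC libraries, against 14, 0, 10.8 and 10.3 in the sham libraries. The groups overlapped over nearly their whole range, and the means were 8.79 ± 7.52 in TAC hearts and 8.78 ± 6.08 in sham hearts (SD, n = 4 each). Of its shorter forms, exons 7 to 10 and exons 5 to 8, had 14 and 9 reads, all in sham replicates 1 and 4. The form from exons 2 to 10, with 4 reads, was found in TAC replicates 1 and 4.

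**Figure D4:**
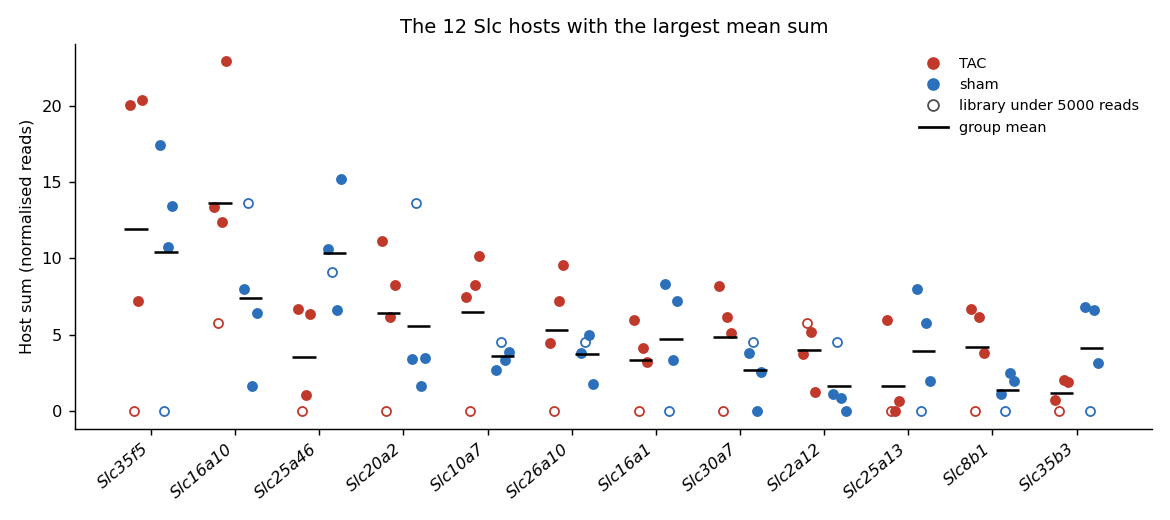
Host sums in normalised reads for the 12 Slc hosts with the largest mean, 1 point per library, red for TAC and blue for sham, with the group mean as a black line and open points for libraries under 5000 reads. The groups overlap for every host shown, and the shallow libraries lie at 0 or at steps of several normalised reads.

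Among mitochondrial carriers, Slc25a46, an outer membrane protein known for its role in mitochondrial shape, held 46.4% of the 293 reads of the class. Its circle of exons 4 to 7 had 2.23, 0, 0 and 3.82 normalised reads in the TAC libraries, against 7.58, 4.54, 4.14 and 12.5 in the sham libraries. Every sham value lay above every TAC value, which held for 1 of the 34 Slc circles and for 2.22% of all circles tested, while the reverse held for 0 Slc circles and 0.884% of all circles. For the circle of Slc25a46 the sham replicate 2 value is a single read, and the 0 in TAC replicate 2 still allows up to 17.3 normalised reads. The limma log2 fold change was -3.11 ± 1.60 (SE, adjusted p = 0.834), and edgeR gave -2.18 ± 0.83 (SE, adjusted p = 0.0587). With the length trend removed limma gave -2.56, and edgeR with that trend as an offset gave -1.28 (adjusted p = 0.308).

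The host sum of Slc25a46 was 6.69, 0, 1.03 and 6.36 normalised reads in the TAC libraries, against 10.6, 9.09, 6.62 and 15.2 in the sham libraries. The groups met at TAC replicate 1 and sham replicate 3. The edgeR log2 fold change was -1.67 ± 0.66 (SE, adjusted p = 0.09). Without sham replicate 2, edgeR called the host sum (-1.75, adjusted p = 0.0292) and the circle (-2.19, adjusted p = 0.0401), in fits that called 230 of 1381 hosts (16.7%) and 248 of 1134 circles (21.9%). The same fit of hosts called Slc35b3, which moves a sulfate donor into the Golgi (-2.33, adjusted p = 0.0244). Without both libraries under 5000 reads, edgeR again called 2 of 14 Slc hosts, Slc25a46 and Slc35b3, against 299 of 1387 hosts (21.6%).

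Slc25a13 summed to 5.95, 0, 0 and 0.636 normalised reads in the TAC libraries, against 7.96, 0, 5.80 and 1.95 in the sham libraries. Slc25a20, the carnitine-acylcarnitine carrier of fatty acid import, summed to 0, 0, 0 and 0.636 in the TAC libraries, against 1.14, 0, 1.66 and 0.973 in the sham libraries. Both overlapped between groups, with limma log2 fold changes of -1.68 ± 1.56 for Slc25a13 and -1.63 ± 1.15 for Slc25a20, and neither passed the test.

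Of the carriers of fuels, Slc16a1 had its reads mainly in exons 2 to 3, with 2.23, 0, 1.03 and 1.27 normalised reads in the TAC libraries, against 8.34, 0, 3.31 and 6.03 in the sham libraries. Apart from sham replicate 2, at 0, the sham values lay above the TAC values. The limma log2 fold change was -1.36 ± 1.60 (SE, adjusted p = 0.919). Without both libraries under 5000 reads, edgeR called the circle (-2.16, adjusted p = 0.0351), in a fit that called 344 of 1145 circles (30%), while limma without them did not (-1.81, adjusted p = 0.093). Exon 4 of the same gene, as a circle of its own, had 1, 0, 3 and 1 reads in the TAC libraries and 0 in each sham library. The circle of exon 2 of Slc2a12, a glucose transporter gene, had 3.72, 5.77, 5.15 and 1.27 normalised reads in the TAC libraries, against 1.14, 4.54, 0.828 and 0 in the sham libraries. With at most 5 reads in any library, its groups overlapped and its log2 fold change was 1.80 ± 1.61 (SE, adjusted p = 0.842, limma), or 0.27 with the length trend removed.

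Slc43a2 exons 3 to 5, from a carrier of large neutral amino acids, had 0, 0, 0 and 0.636 normalised reads in the TAC libraries, against 0.379, 9.09, 3.31 and 2.53 in the sham libraries. It was the Slc circle with the smallest p in limma, with a log2 fold change of -3.26 ± 1.48 (SE, unadjusted p = 0.0283, adjusted p = 0.834), and its highest value, in sham replicate 2, is 2 reads. TAC replicate 4 overlapped with sham replicate 1, where each had 1 read.

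Slc44a1 exons 2 to 3, whose sequence is given whole above, had 0, 0, 0 and 0.636 normalised reads in the TAC libraries, against 3.41, 0, 1.66 and 8.37 in the sham libraries. The longer circle from the same start, exons 2 to 4, had 1.49, 0, 1.03 and 0.636 in the TAC libraries, against 0.379, 0, 0 and 0 in the sham libraries. The shorter circle was high in sham replicates 1, 3 and 4 and the longer one had 4 of its 5 reads in TAC libraries. Their limma log2 fold changes were -2.71 ± 1.39 and 1.57 ± 1.04 (SE, adjusted p = 0.834 each), and with the length trend removed they were -1.68 and 1.64.

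Slc29a2 exons 5 to 7, from an equilibrative nucleoside transporter, had 0, 0, 1.03 and 0 normalised reads in the TAC libraries, against 0.758, 0, 2.48 and 5.45 in the sham libraries. Of its 34 reads, 28 were from sham replicate 4. Its log2 fold change was -2.07 ± 1.32 (SE, adjusted p = 0.834, limma), with overlapping groups.

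Among ion and metal carriers, 8 hosts for bicarbonate, proton and anion exchange, 6 for metals, 4 for cation-chloride and phosphate, and 1 for calcium exchange were tested, and none passed. Slc8b1 exons 6 to 14 had 5.95, 0, 5.15 and 3.82 normalised reads in the TAC libraries, against 1.14, 0, 2.48 and 1.95 in the sham libraries. TAC replicates 1, 3 and 4 lay above every sham value, and TAC replicate 2 had no read. The log2 fold change was 1.03 ± 1.60 (SE, adjusted p = 0.946, limma), and with the length trend removed it was -0.32, for a circle of 1072 nt.

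Slc26a10 exons 6 to 8 had 4.46, 0, 7.21 and 9.54 normalised reads in the TAC libraries, against 3.79, 4.54, 4.97 and 1.75 in the sham libraries. Its limma value of -0.38 ± 1.57 and its edgeR value of 0.60 ± 0.79 differ in sign, and TAC replicate 2, at 0, is the library below the sham range.

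The Slc20a2 host sum, from a sodium-phosphate cotransporter gene, was 11.2, 0, 6.18 and 8.27 normalised reads in the TAC libraries, against 3.41, 13.6, 1.66 and 3.50 in the sham libraries. The shallow libraries held both the lowest TAC value and the highest sham value, and the value in sham replicate 2 is 3 reads. The limma log2 fold change was -0.38 ± 1.52 and that of edgeR 0.63 ± 0.67, and neither passed the test.

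In 6 hosts, 10 pairs of circles with at least 10 reads each share 1 splice site, and reads were split between the shorter and the longer circle of each pair. Summed over the libraries of a group, the longer circle had the higher share in TAC hearts in 7 pairs and in sham hearts in 3, and pairs of 1 host share circles. With 1 library left out, the direction turned in 2 of these 7 pairs and in 2 of the 3. No count over the pairs of all hosts is set beside these numbers. Longer circles were also the higher ones in TAC over all circles tested. There the median log2 fold change was 0.87 over 500 nt and -0.23 at 500 nt or less. Whether the Slc pairs depart from that length trend was not tested. In Slc30a7, a zinc transporter of the Golgi, exons 6 to 8 had 5, 0, 3 and 6 reads in the TAC libraries, against 7, 1, 0 and 13 in the sham libraries. The longer form from exons 3 to 8 had 5, 0, 3 and 2 reads in the TAC libraries and 0 in each sham library. In summed reads the longer form made up 41.7% of the pair in TAC hearts and 0% of 21 reads in sham hearts.

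In Slc16a1, exons 2 to 4 made up 50% of the pair with exons 2 to 3 in TAC hearts, 6 of 12 reads, and 9.52% in sham hearts, 6 of 63 reads, with all 6 in sham replicate 4. In Slc25a46, exons 2 to 7 made up 47.1% of the pair with exons 4 to 7 in TAC hearts and 14.3% in sham hearts. In Slc20a2, exons 2 to 5 made up 47.1% of the pair with exons 2 to 4 in TAC hearts and 26.7% in sham hearts. That direction rests on sham replicate 4, with 18 of the 22 sham reads of exons 2 to 4, and without it the share was 47.1% in TAC hearts and 66.7% in sham hearts. The Slc10a7 pair of exons 2 to 4 and 2 to 5 went the other way, with 50% in TAC hearts and 90.9% in sham hearts. The shares pool reads over libraries of unequal depth, the pairs shown were chosen after the reads were seen, and no test was made.

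**Figure D5:**
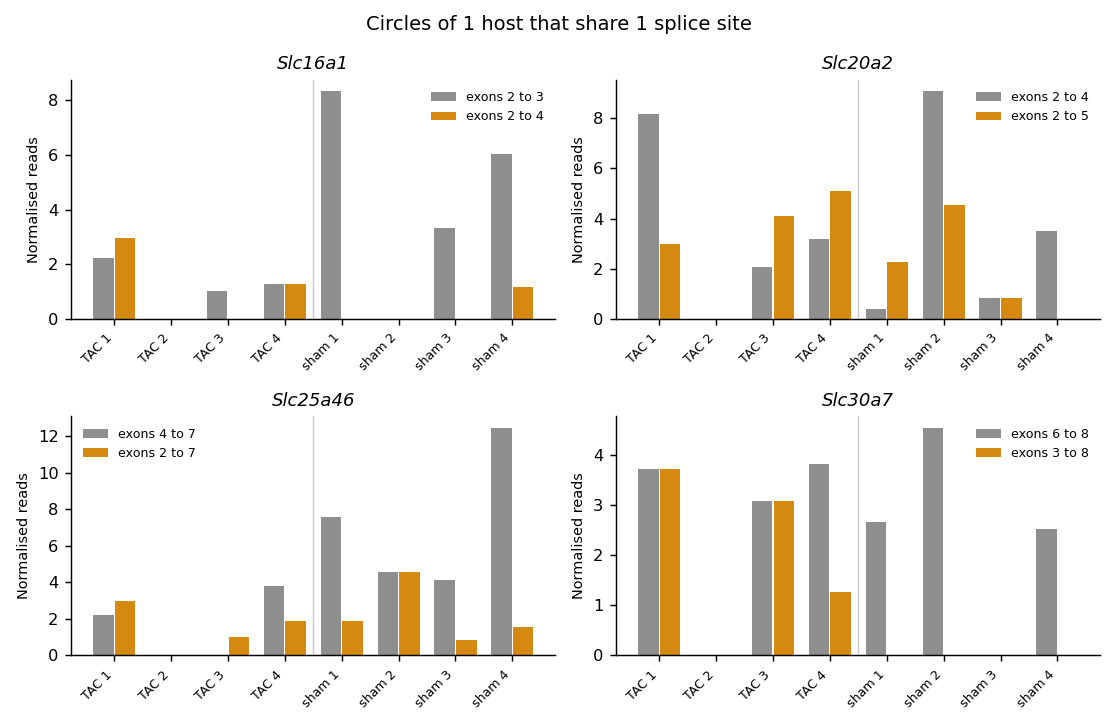
Normalised reads (y axis) of the shorter (grey) and longer (orange) circle of 4 hosts whose circles share a splice site, in each library, TAC left of the vertical line and sham right of it. The longer Slc30a7 circle has reads in TAC replicates 1, 3 and 4 and in no sham library.

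Without the 2 libraries under 5000 reads, limma called 10 of 61 Slc circles, 7 higher and 3 lower in TAC, against 1037 of 5809 circles (17.9%; 14.6% higher, 3.2% lower), and 0 of 55 Slc hosts, against 6.06% of all hosts. With 3 libraries a group the filter also admits circles seen in 1 group only, which had to differ. Of the 10 circles, 8 were of that kind, 6 with no read in the sham libraries kept and 2 with no read in the TAC libraries kept, and no fold change is given for them. They include Slc16a1 exon 4 and Slc30a7 exons 3 to 8, whose reads are given above, and Slc41a3 exons 3 to 8, of a magnesium transporter, with 2, 0, 1 and 1 reads in the TAC libraries and 0 in each sham library. Slc25a20 exons 6 to 7 had 0 reads in each TAC library, and 1, 0, 2 and 5 in the sham libraries. Of the 2 with reads in both groups, Slc44a1 exons 2 to 3 was lower in TAC (-3.61, adjusted p = 0.0345), where 43 of its 55 reads were from sham replicate 4. Slc10a7 exons 2 to 4 was higher in TAC (3.18, adjusted p = 0.0459), with 3, 0, 4 and 4 reads in the TAC libraries, against 0, 1, 1 and 0 in the sham libraries. Leaving out TAC replicate 2 alone gave 5 of 63, all higher in TAC and all with no read in the sham libraries, against 10.8% of all circles called and 10.4% higher.

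Other membrane transporters are set beside the Slc hosts as a description. limma called 0 of 14 ABC transporters, 0 of 11 P-type ATPases, 0 of 3 V-type ATPase subunits and 0 of 7 carriers under other symbols, against 0.0337% of all hosts. At an unadjusted p under 0.05 it also had 0 of these hosts, against 3.03% of all hosts. edgeR called 0 of the 6, 4, 2 and 3 hosts it tested in these families, against 8.24% of all hosts.

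Circles of cell type markers were summed beside these values. Cardiomyocyte markers, with 10 of 11 listed and Pln without a row in the table used here, summed to between 225 and 713 normalised reads in the TAC libraries and between 176 and 495 in the sham libraries, and TAC replicates 1, 3 and 4 lay above every sham value. Endothelial markers, 8 of 8 listed, summed to between 5.77 and 51.5 in the TAC libraries and between 13.3 and 40.9 in the sham libraries. Fibroblast markers, 5 of 8 listed, summed to 1.49, 0, 1.03 and 0.636 in the TAC libraries, against 2.28, 4.54, 1.66 and 3.70 in the sham libraries, with Lum, Postn and Tcf21 without a row. Every TAC value of that list lay below every sham value. This held for 1.89% of all hosts tested, a rate for single hosts and not for sums over several genes. The nearest values were 1.49 and 1.66, where 1 read was worth 0.744 in TAC replicate 1 and 0.828 in sham replicate 3. In sham replicate 2 a single read was worth 4.54, so these sums rest on few reads. Leukocyte markers, 4 of 7 listed, summed to between 11.5 and 24.2 in the TAC libraries and between 7.58 and 19 in the sham libraries. Smooth muscle and pericyte markers, 3 of 6 listed, summed to between 0 and 5.77 in the TAC libraries and between 0 and 0.379 in the sham libraries. The 5.77 is a single read in TAC replicate 2, and the 0.379 a single read in sham replicate 1. The part of cell makeup in the Slc values was not tested, and in bulk tissue fewer cells of a type and less RNA per cell cannot be told apart.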

How the data were processed

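Back-spliced reads were measured in 8 heart libraries, 4 TAC and 4 sham, grouped by the treatment label, with replicate numbers in accession order. Per the labels' protocols, a purchased kit served to extract circRNA, and library construction was done by a company. The submitters' processing notes name mm10, HISAT2, StringTie and DESeq2, with no versions or roles, and the sources used here do not name the circRNA caller. The deposited values have the unit signal: each circle's reads over the library's size factor, which follows from the values and not from the labels. In each library 100% of values were whole multiples of the smallest one within 0.001, so whole reads were recovered. Read totals ran from 1119 to 100142, and this sets the precision.

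The main test was limma 3.58.1 (R 4.3.3) on log2(value + 0.195) with an intensity trend, where 0.195 is the lowest nonzero value, for circles or host sums above 0 in at least 4 libraries. Its SE and p-values follow the trend over all features, and its fold changes are on that scale. For low circles they depend on the value added: Slc25a46 exons 4 to 7 had -3.11 with 0.195 and -1.93 with 1. Benjamini-Hochberg adjustment ran over the whole table at a threshold of 0.05. As alternatives, the edgeR 4.0.16 quasi-likelihood test (TMM, minimum count 5, minimum total 15) and DESeq2 1.42.0 were run on the recovered reads, with other pseudocounts, filters and scalings and with libraries left out. In limma fits with libraries left out, the filter fell to 3 libraries, the size of the smaller group. Scripts were tested on simulated data. Spliced lengths and exon numbers come from GENCODE M21, and classes from the family number.

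The members, classes and lists were chosen with earlier results of these data known. Named are the Slc circles and hosts with the largest means, the smallest p-values per direction, the most circles or reads in at least 7 libraries, the leading host per class and 23 transporters known in heart, though not every one picked is named in the text, and some results are not reported here. Other circles and hosts named from pairs of forms, from single circle counts or from fits with libraries left out were chosen after their values were seen. Library strand is not stated, so overlapping genes were not separated.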

Additional observations from a re-analysis of the deposited data

Results flagged for a closer look

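In 21 cases, 1 library of a named circle or host sum lay far from the other 3 of its group. The rule's rate of about 1 case in 20 groups by chance holds for normally distributed values and not for such sparse reads. In 19 of the 21 the other 3 libraries were at 0, so any read met the rule and the value rests on 1 library. The 2 cases with other values above 0 were the Slc25a13 host sum, with 5.95 normalised reads in TAC replicate 1 and at most 0.636 in the other TAC libraries, and the Slc20a2 host sum, with 13.6 in sham replicate 2 and at most 3.50 in the other sham libraries.

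Among TAC libraries with the other 3 at 0, the circles Slc43a2 exons 3 to 5 and Slc44a1 exons 2 to 3 and the Slc25a20 host sum had 0.636 normalised reads in replicate 4. The circle Slc29a2 exons 5 to 7 and the host sum of Slc29a2 had 1.03 in replicate 3. The circle Slc18b1 exons 2 to 5, from a vesicular polyamine transporter, and the host sums of Slc18b1 and Slc27a1 had 0.744 in replicate 1.

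Among sham libraries with the other 3 at 0, the Slc35e2 exons 2 to 5 circle and host sum had 1.14 in replicate 1. The Slc22a3 exons 2 to 5 circle and host sum, from an organic cation transporter, had 0.828 in replicate 3. In replicate 1, the circle Slc44a1 exons 2 to 4 and the host sums of Slc27a6 and Slc22a5 had 0.379, the Slc26a11 host sum 0.758 and the Slc38a2 host sum, from a neutral amino acid transporter, 1.52. The Slc9a3r2 host sum had 4.54 in replicate 2 and the Slc25a3 host sum 1.75 in replicate 4.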

How the results depend on the processing

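A read is worth several normalised reads in the 2 shallow libraries, and leaving both out raised the calls over all circles and hosts. The limma filter then also fell to 3 libraries and passed 5809 circles, against 3735 with all libraries, so depth and filter cannot be told apart. Over all circles, limma called 644 without TAC replicate 2 alone and 3 without sham replicate 2 alone. Without both libraries, Slc circles called rose to 10 in limma and 2 in edgeR. Slc hosts called rose to 2 in edgeR and stayed at 0 of 55 in limma. The alternatives that kept all 8 libraries left the Slc counts at 0. No paired analysis was possible because the labels carry no shared replicate numbers. The edgeR fits without libraries, with other factors or with the length trend as an offset, and the summed values and pair shares without each library, were chosen after seeing the data.

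Slc circles called numbered 0 to 5 in limma and 0 to 1 in edgeR with 1 library left out, 10 in limma and 2 in edgeR without both libraries under 5000 reads. Slc hosts called numbered 0 to 2 in edgeR with 1 library left out and 2 without both such libraries. Over all circles, limma called 0 with TMM scaling, 0 with the length trend removed, 0 to 644 with 1 library left out and 1037 without both libraries under 5000 reads. DESeq2 called 34. edgeR called 94, 61 without scaling factors, 82 with RLE factors, 3 with the length offset, 9, 230, 0 and 9 without TAC replicates 1 to 4 in turn, 62, 248, 39 and 34 when sham replicates 1 to 4 were left out one by one, and 344 without both such libraries. Over all hosts, limma called 0 with at least 6 libraries above 0, 0 with TMM scaling, 4 with library totals as the scale, 1 to 8 with 1 library left out and 221 without both libraries under 5000 reads. DESeq2 called 32. edgeR called 84, 63 without scaling factors, 100 with RLE factors, 11, 111, 11 and 20 without TAC replicates 1 to 4 in turn, 84, 230, 47 and 19 when sham replicates 1 to 4 were left out one by one, and 299 without both such libraries. The Slc share differed by -0.113 percentage points (TAC minus sham) and by -0.183 to -0.0028 with 1 library left out, and summed deposited values by 7.90 normalised reads (127.7 in TAC libraries, 119.8 in sham libraries) and by -11.4 to 44.7 with 1 library left out. The 44.7 came without TAC replicate 2, with 164.5 in the TAC libraries and 119.8 in the sham libraries.

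Of 20 named circles, 14 kept their sign under each alternative compared, and of 25 named hosts 16 did. The edgeR fits with 1 library left out, without scaling factors or with RLE factors were not among these alternatives. Log2 fold changes that changed sign follow, with the limma value in brackets, and the cause was not tested. The Slc35f5 exons 5 to 10 circle (-0.10) came to 0.029 in DESeq2, and ran from -1.58 to 1.34 with 1 library left out. The Slc26a10 exons 6 to 8 circle (-0.38) came to 0.029 with a pseudocount of 1, 1.02 without both libraries under 5000 reads, 0.60 in edgeR, 0.84 in DESeq2, 0.91 in edgeR without both such libraries and 1.15 in edgeR with the length offset, and ran from -0.98 to 0.90 with 1 library left out. The Slc20a2 exons 2 to 4 circle (-0.18) came to 0.0089 with a pseudocount of 1, 1.63 without both libraries under 5000 reads and 0.62 in DESeq2, and ran from -0.89 to 0.91 with 1 library left out. The Slc8b1 exons 6 to 14 circle (1.03) came to -0.32 with the length trend removed. The Slc30a7 exons 6 to 8 circle (0.12) came to -0.16 with library totals as the scale, and ran from -0.90 to 1.19 with 1 library left out. The Slc25a46 exons 2 to 7 circle (-0.87) came to 0.37 without both libraries under 5000 reads and 0.094 in DESeq2. The Slc35f5 host sum (0.057) came to -0.13 with TMM scaling, -0.30 with library totals as the scale, -0.27 in edgeR, -0.11 in DESeq2 and -0.22 in edgeR without both such libraries, and ran from -1.48 to 1.61 with 1 library left out. The Slc20a2 host sum (-0.38) came to 0.017 with a pseudocount of 1, 1.54 without both libraries under 5000 reads, 0.63 in edgeR, 0.60 in DESeq2 and 1.09 in edgeR without both such libraries, and ran from -0.97 to 0.98 with 1 library left out. The Slc10a7 host sum (-0.14) came to 0.12 with a pseudocount of 0.5, 0.26 with a pseudocount of 1, 1.34 without both libraries under 5000 reads, 0.76 in edgeR, 0.86 in DESeq2 and 0.99 in edgeR without both such libraries, and ran from -0.68 to 1.23 with 1 library left out. The Slc26a10 host sum (-0.38) came to 0.029 with a pseudocount of 1, 1.02 without both libraries under 5000 reads, 0.50 in edgeR, 0.53 in DESeq2 and 0.71 in edgeR without both such libraries, and ran from -0.98 to 0.90 with 1 library left out. The Slc16a1 host sum (-0.33) ran from -1.57 to 0.80 with 1 library left out. The Slc30a7 host sum (0.61) ran from -0.45 to 1.88 with 1 library left out. The Slc30a5 host sum (-0.18) came to 0.057 with TMM scaling and 1.29 without both libraries under 5000 reads, and ran from -1.18 to 0.76 with 1 library left out. The Slc25a12 host sum (0.29) came to -0.055 with library totals as the scale, and ran from -0.61 to 1.28 with 1 library left out. The Slc4a4 host sum (0.17) came to -0.0056 with TMM scaling, -0.15 with library totals as the scale and -0.20 in DESeq2, and ran from -0.64 to 1.04 with 1 library left out.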
